A study of Mus musculus with 12 samples.

Results

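The CDK inhibitors, the D cyclins and the kinases CDK4 and CDK6 form the switch that commits a cell to divide, and here their transcripts were followed in mouse blood stem and progenitor cells with and without the transcription factor NFAT5. The set was defined by gene name as 10 genes: the Cip/Kip inhibitors Cdkn1a and Cdkn1b, the INK4 inhibitors Cdkn2a, Cdkn2c and Cdkn2d, the D cyclins Ccnd1, Ccnd2 and Ccnd3, and the kinases Cdk4 and Cdk6. Of the 10 genes, 9 were measured, with 1 probe set each, among the 19494 genes tested. Ccnd1 was not analysed here.

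Irradiated wild-type recipients received bone marrow of the genotype Nfat5 fl/fl Vav-Cre, called NFAT5-deficient, or Nfat5 +/+ Vav-Cre, called wild-type, so both genotypes carried the Cre transgene. Donors were CD45.2 and recipients CD45.1, and CD45.2+ cells were sorted 13 weeks after transplantation. The 4 groups were NFAT5-deficient hematopoietic stem cells (HSC), wild-type HSC, NFAT5-deficient multipotent progenitors (MPP) and wild-type MPP, with 3 arrays each. HSC were CD48-CD150+ and MPP were CD48+CD150- cells of the LSK compartment, which is lineage-negative, Sca-1-positive and Kit-positive. Vav-Cre acts in blood cells generally, so the deletion preceded the transplantation and was not specific to either population. Ages of the mice are not given in the labels. Arrays are named by the number in their titles, which is 64, 70 or 76 for NFAT5-deficient and 66, 67 or 75 for wild-type cells.

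A cell in G1 divides when D cyclins bind CDK4 or CDK6 and the resulting kinase phosphorylates the retinoblastoma protein, which releases E2F factors and starts DNA replication. INK4 proteins bind CDK4 and CDK6 and keep cyclin D away, whereas the Cip/Kip proteins p21 and p27 mainly inhibit CDK2 and also help assemble cyclin D complexes. In mouse bone marrow these genes are known for setting quiescence: HSC rarely divide and enter the cycle slowly, and CDK6 abundance is a known determinant of how fast human and mouse stem cells leave quiescence.

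The promoters of 3 members are shown because these genes either differed most between HSC and MPP (Cdk6 and Cdkn1a) or carried the most repeats of a searched motif (Cdk4). Each is the 250 bases before a RefSeq transcript start of mouse build GRCm38.p6, 5′ to 3′ on the gene's plus strand, in chr10:127063285-127063534 for Cdk4, chr5:3343643-3343892 for Cdk6 and chr17:29093519-29093768 for Cdkn1a. Capitals mark the E-box CACGTG, the letters MYC-family factors bind, in Cdk4 and Cdk6, and the GC box GGGCGG, the letters Sp1-type factors bind, in Cdkn1a.
Cdk4: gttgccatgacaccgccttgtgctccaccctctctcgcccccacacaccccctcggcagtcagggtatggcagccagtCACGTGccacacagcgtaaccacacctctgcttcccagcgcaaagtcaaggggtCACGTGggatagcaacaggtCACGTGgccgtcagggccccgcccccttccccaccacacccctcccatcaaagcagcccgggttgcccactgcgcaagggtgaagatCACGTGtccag
Cdk6: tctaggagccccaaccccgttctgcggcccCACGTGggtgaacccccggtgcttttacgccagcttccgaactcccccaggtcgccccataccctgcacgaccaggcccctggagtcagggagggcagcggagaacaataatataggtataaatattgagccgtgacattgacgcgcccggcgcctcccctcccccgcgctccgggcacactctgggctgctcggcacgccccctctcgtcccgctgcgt
Cdkn1a: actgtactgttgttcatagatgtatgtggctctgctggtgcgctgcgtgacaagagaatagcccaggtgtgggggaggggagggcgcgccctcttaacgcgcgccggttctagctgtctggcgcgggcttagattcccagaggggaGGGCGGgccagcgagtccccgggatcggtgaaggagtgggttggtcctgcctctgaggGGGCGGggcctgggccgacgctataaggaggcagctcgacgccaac

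The Cdk4 promoter held 4 E-boxes, at 172, 118, 98 and 11 bases before the start, and 7 of the 32851 promoters in the table (0.0213%) held 4 or more. The Cdk6 promoter held 1 E-box, 220 bases before the start, as 6.02% of all promoters held at least 1. The Cdkn1a promoter shown held 2 GC boxes, 104 and 46 bases before the start, as 16.7% of all promoters held at least 2. Another Cdkn1a promoter, chr17:29090729-29090978, held 0 GC boxes. Both strands were searched for every motif. The table held 12 promoters of 8 members, and the NFAT core letters TGGAAA were in 0 of these 12, against 18.6% of all promoters. An E2F letter string (TTTCGCGC, TTTGGCGC, TTTCCCGC or TTTGCCGC) occurred in 1 of the 12, at the upstream start of Cdkn2a, and in 1.86% of all promoters. The 3 genes span chr10:127063535-127067288 (Cdk4), chr5:3341004-3531008 (Cdk6) and chr17:29090979-29100722 (Cdkn1a) in the same annotation, and Ccnd2 spans chr6:127125162-127152188. The promoters shown for Cdk6 and Cdkn1a lie inside the spans of their genes. A match is a description of letters and not a measured binding site.

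Before the members, 3 facts of the arrays bear on every value. Nfat5 itself was lower in NFAT5-deficient HSC (8.76, 8.34 and 7.62 on the log2 intensity scale) than in wild-type HSC (9.81, 9.38 and 9.27). These groups did not overlap, as for 10.2% of all genes in either direction, and Nfat5 was not called. In MPP the groups overlapped (7.63, 7.73 and 8.40, against 8.78, 8.85 and 8.12). Neither the labels nor the annotation say whether its probe set lies in the deleted exons, so the remaining signal does not measure the deletion. The means of 8 HSC marker genes, among them Slamf1 (CD150), ran from 8.79 to 9.46 on HSC arrays and from 7.09 to 7.76 on MPP arrays. Those of 6 MPP marker genes, among them Cd48, ran from 5.67 to 6.24 and from 9.22 to 10.06. These list means separated the labelled populations, but single genes did so unevenly. In NFAT5-deficient cells Procr averaged 7.08 in HSC and 7.35 in MPP, and Hlf 10.94 and 10.76. The mean of 9 mature neutrophil genes was 5.42, 5.53 and 5.51 on NFAT5-deficient HSC arrays, against 6.88, 7.38 and 5.52 on wild-type HSC arrays, so wild-type HSC arrays 66 and 67 stood apart. The same-numbered wild-type MPP arrays also had the highest means of the MPP arrays (6.49, 6.62 and 6.01 in NFAT5-deficient MPP, against 6.94, 7.02 and 5.96 in wild-type MPP). Differences of the members described most fully are also given without the 2 HSC arrays, or without the 2 MPP arrays, which leaves that group with 1 array that is assumed to vary like the others. The range of single Y-linked gene values (3.55 to 5.18) serves as a guide to the dim end, although the sex of the cells was not analysed. Eif2s3y, with group means from 4.90 to 5.07, lay at the top of that range, and Kdm5d and Uty lay lower (3.65 to 4.12). The mean of 3 T cell genes per array, 4.89 to 5.38, was close to the top of the range, although Cd3e alone had group means from 5.67 to 5.96. Labels do not say whether arrays of a group came from separate recipients, so p-values measure the spread between these samples.

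HSC and MPP differed most in 3 members, and the differences ran the same way in both genotypes: Cdk6 and Cdkn1a read lower in HSC, and Ccnd2 read higher. Averaged over the genotypes, the ratio of HSC to MPP was 0.466 for Cdk6, 0.473 for Cdkn1a and 1.58 for Ccnd2. None passed the test across all genes, and 0 of the 9 members were called at an adjusted p under 0.05 in limma's fit, against 0.61% of all genes (119 of 19494). At an unadjusted p under 0.05 it was 3 of the 9 members, against 12.2% of all genes.

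**Figure D1:**
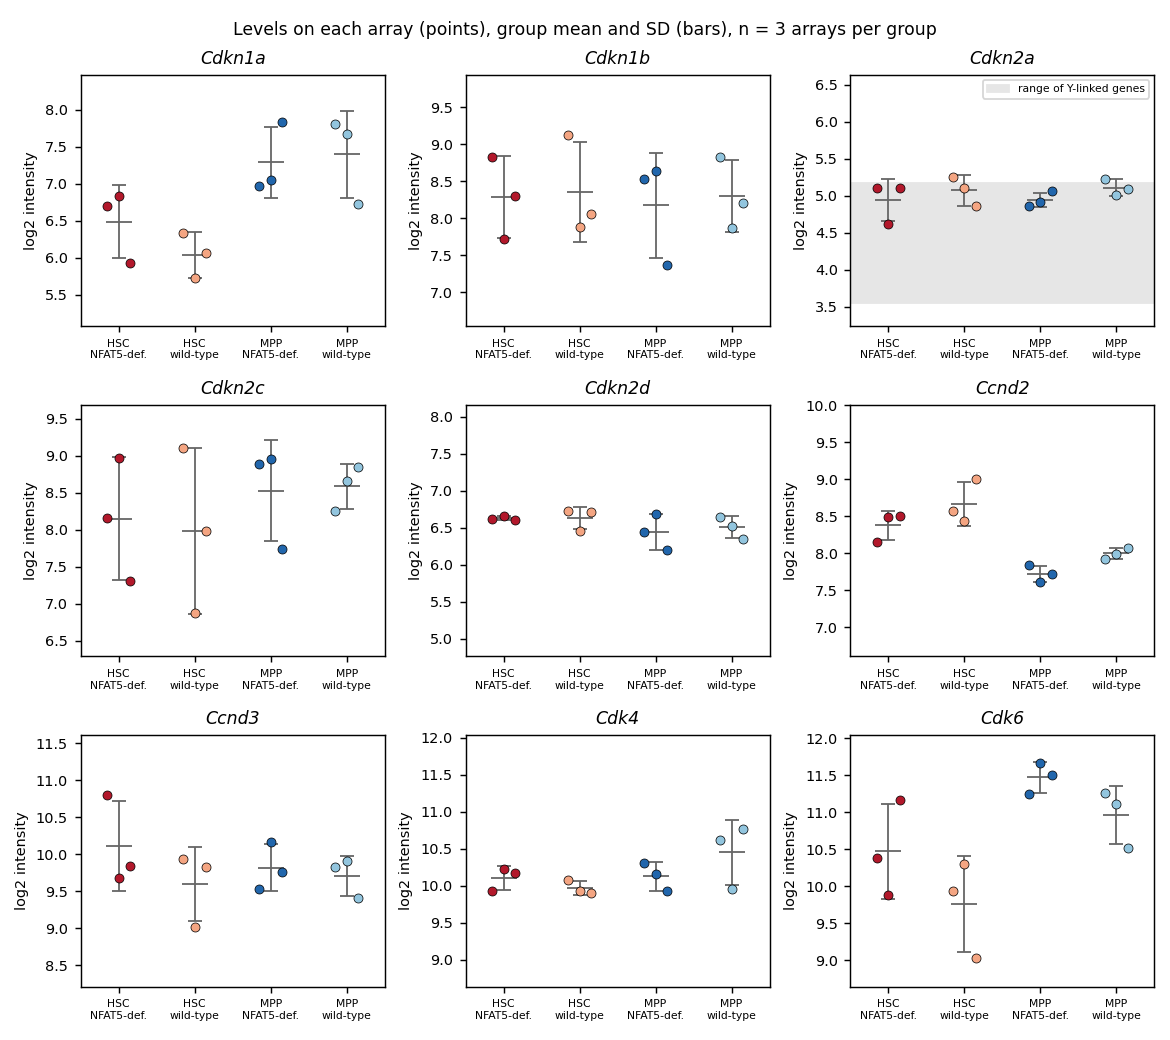
Log2 intensity of the 9 measured members on every array, 1 panel per gene, with NFAT5-deficient HSC, wild-type HSC, NFAT5-deficient MPP and wild-type MPP from left to right. Points are arrays, and bars give the mean and SD of 3 arrays. All panels span the same number of log2 units, so the tight groups of Cdkn2d and the wide ones of Cdkn2c can be compared, and Ccnd2 is the panel in which all HSC points lie above all MPP points.

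Cdk6, a kinase partner of D cyclins prominent in blood cells, had the widest range of group means of the set. It read 10.38, 9.88 and 11.16 in NFAT5-deficient HSC and 9.94, 10.30 and 9.03 in wild-type HSC, against 11.25, 11.66 and 11.50 in NFAT5-deficient MPP and 11.26, 11.11 and 10.52 in wild-type MPP. Within each genotype all HSC arrays lay below all MPP arrays, but across genotypes they overlapped, since NFAT5-deficient HSC array 76 read above 2 of the wild-type MPP arrays. The HSC minus MPP difference was -0.996 in NFAT5-deficient cells (SE 0.37, limma adjusted p = 0.531) and -1.21 in wild-type cells (SE 0.37, limma adjusted p = 0.354). Averaged over genotypes it was -1.10 (95% interval -1.68 to -0.52), with a limma adjusted p of 0.117. Without wild-type HSC arrays 66 and 67 the difference was -1.93 in wild-type cells (limma adjusted p = 0.184) and -1.46 in the average (limma adjusted p = 0.0658). Without wild-type MPP arrays 66 and 67 it was -0.76 in wild-type cells and -0.88 in the average (limma adjusted p = 0.787 and 0.418). The group means were 10.47 ± 0.64 in NFAT5-deficient HSC and 9.76 ± 0.65 in wild-type HSC, below 11.47 ± 0.21 in NFAT5-deficient MPP and 10.96 ± 0.39 in wild-type MPP (SD, n = 3 each). Ranked by these means, each group overlapped with its neighbours.

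Cdkn1a encodes p21, the Cip/Kip inhibitor best known as a target of p53. It read 6.70, 6.83 and 5.93 in NFAT5-deficient HSC and 6.33, 5.72 and 6.07 in wild-type HSC, against 6.97, 7.05 and 7.83 in NFAT5-deficient MPP and 7.80, 7.67 and 6.72 in wild-type MPP. HSC arrays lay below MPP arrays within each genotype, and across genotypes NFAT5-deficient HSC array 70 read above wild-type MPP array 75. The HSC minus MPP difference was -0.80 in NFAT5-deficient cells (SE 0.36, limma adjusted p = 0.626) and -1.36 in wild-type cells (SE 0.36, limma adjusted p = 0.274). Averaged over genotypes it was -1.08 (95% interval -1.64 to -0.52, limma adjusted p = 0.110), and -1.06 without wild-type HSC arrays 66 and 67. Without wild-type MPP arrays 66 and 67 it was -0.68 in wild-type cells and -0.74 in the average (limma adjusted p = 0.773 and 0.410). The group means were 6.49 ± 0.49 in NFAT5-deficient HSC and 6.04 ± 0.31 in wild-type HSC, below 7.29 ± 0.48 in NFAT5-deficient MPP and 7.39 ± 0.59 in wild-type MPP (SD, n = 3 each). Arrays overlapped between the genotypes of each population but not between NFAT5-deficient HSC and NFAT5-deficient MPP.

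Ccnd2 encodes cyclin D2, a D cyclin expressed in many blood cells. It read 8.15, 8.49 and 8.50 in NFAT5-deficient HSC and 8.57, 8.44 and 9.0 in wild-type HSC, against 7.84, 7.62 and 7.72 in NFAT5-deficient MPP and 7.93, 7.99 and 8.08 in wild-type MPP. All 6 HSC arrays lay above all 6 MPP arrays, as for 1.33% of all genes (260 of 19494) in either direction. The HSC minus MPP difference was 0.65 in NFAT5-deficient cells (SE 0.22, limma adjusted p = 0.463) and 0.67 in wild-type cells (SE 0.22, limma adjusted p = 0.384). Averaged over genotypes it was 0.66 (95% interval 0.319 to 1.004, limma adjusted p = 0.110). This gene passed in 1 setting: with a single variance prior for all intensities, in place of the intensity trend, the limma adjusted p was 0.0377. Without wild-type HSC arrays 66 and 67 the averaged difference was 0.83, and without wild-type MPP arrays 66 and 67 it was 0.62. The group means were 8.38 ± 0.20 in NFAT5-deficient HSC and 8.67 ± 0.29 in wild-type HSC, above 7.73 ± 0.11 in NFAT5-deficient MPP and 8.0 ± 0.07 in wild-type MPP (SD, n = 3 each). The HSC genotypes overlapped, and the MPP genotypes did not.

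Counting arrays, HSC and MPP did not overlap in either genotype and differed in the same direction for Cdkn1a, Ccnd2 and Cdk6, which is 3 of the 9 members, against 2.46% of all genes (479 of 19494). Such counts only describe the set, since the members were chosen with earlier results of these data known. The median difference of the 9 members, averaged over genotypes, was -0.02, against 0.06 for all genes, with 4 of 9 members higher in HSC, so the set as a whole had no common direction.

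**Figure D2:**
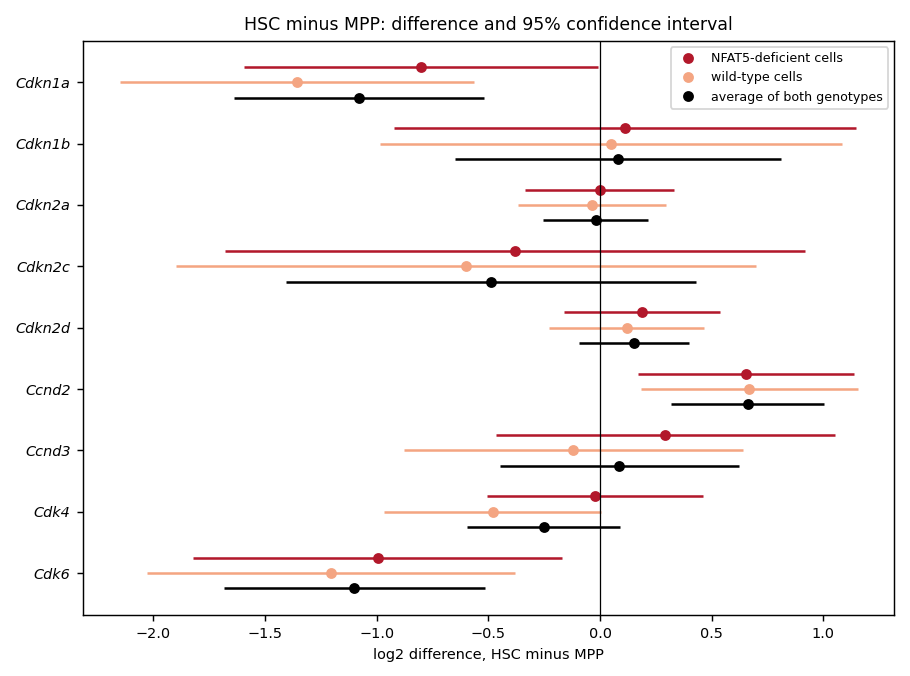
Log2 difference between HSC and MPP for each member, in NFAT5-deficient cells, in wild-type cells and averaged over both, with 95% confidence intervals from the limma fit; values left of 0 are lower in HSC. Intervals of the average exclude 0 for Cdkn1a (-1.64 to -0.52), Cdk6 (-1.68 to -0.52) and Ccnd2 (0.319 to 1.004), before any adjustment for the number of genes tested.

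The other 6 members differed less between the populations. Cdk4, the other kinase partner of D cyclins, read 9.92, 10.22 and 10.17 in NFAT5-deficient HSC and 10.07, 9.93 and 9.90 in wild-type HSC, against 10.31, 10.15 and 9.92 in NFAT5-deficient MPP and 10.62, 9.95 and 10.77 in wild-type MPP. Its arrays overlapped in both genotypes. The HSC minus MPP difference was -0.02 in NFAT5-deficient cells and -0.48 in wild-type cells (limma adjusted p = 0.984 and 0.564), and the averaged one was -0.25 (95% interval -0.60 to 0.09).

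Ccnd3, which encodes cyclin D3, read 10.80, 9.68 and 9.84 in NFAT5-deficient HSC and 9.93, 9.02 and 9.83 in wild-type HSC, against 9.53, 10.16 and 9.76 in NFAT5-deficient MPP and 9.83, 9.90 and 9.40 in wild-type MPP. The 2 HSC groups held both its highest and its lowest array. Its averaged HSC minus MPP difference was 0.09 (95% interval -0.45 to 0.62), in contrast to the value of 0.66 for Ccnd2, the other measured D cyclin; the difference between the 2 genes was not tested.

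Cdkn1b encodes p27, the Cip/Kip inhibitor that accumulates in resting cells. It read 8.83, 7.72 and 8.30 in NFAT5-deficient HSC and 9.12, 7.88 and 8.06 in wild-type HSC, against 8.53, 8.63 and 7.36 in NFAT5-deficient MPP and 8.83, 7.87 and 8.21 in wild-type MPP. Its 4 group means lay within 0.18 of each other, while its SD within groups was 0.61. The averaged HSC minus MPP difference was 0.08, with an interval from -0.65 to 0.81 that leaves room for differences as large as the one seen for Ccnd2.

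Among the INK4 inhibitors, Cdkn2c (p18INK4c) had the widest spread between arrays of a group. It read 8.16, 8.97 and 7.31 in NFAT5-deficient HSC and 9.11, 6.87 and 7.99 in wild-type HSC, against 8.89, 8.95 and 7.74 in NFAT5-deficient MPP and 8.25, 8.66 and 8.85 in wild-type MPP. Wild-type HSC alone covered more than the distance between any group means, and the averaged HSC minus MPP difference of -0.49 had an interval from -1.41 to 0.43. Cdkn2d (p19INK4d) was the opposite: it read between 6.20 and 6.73 on all 12 arrays, and its averaged difference was 0.15 (95% interval -0.09 to 0.40).

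Cdkn2a was close to the dim end of the scale. It encodes p16INK4a and, from another start and reading frame, p19ARF, and its single probe set does not separate them. It read 5.11, 4.62 and 5.11 in NFAT5-deficient HSC and 5.26, 5.10 and 4.86 in wild-type HSC, against 4.87, 4.92 and 5.06 in NFAT5-deficient MPP and 5.23, 5.01 and 5.09 in wild-type MPP. On 10 of 12 arrays it read no higher than the Y-linked genes did at most, so its differences between groups, none larger than 0.16 in size, are not read as changes.

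Loss of NFAT5 was set against wild-type within each population, and no member passed. In HSC 0 of 9 members were called, against 0.0% of all genes (0 of 19494), and 0 members and 6.18% of all genes had an unadjusted limma p under 0.05. In MPP 0 of 9 members were called, against 0.00513% of all genes (1 of 19494, Ms4a4c, named after its value was seen), and 0 members and 5.35% of all genes had an unadjusted limma p under 0.05.

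Cdk6 had the largest genotype difference of the set in both populations. It was 0.72 higher in NFAT5-deficient than in wild-type HSC (95% interval -0.11 to 1.54, limma adjusted p = 0.850) and 0.51 higher in NFAT5-deficient than in wild-type MPP (95% interval -0.32 to 1.33, limma adjusted p = 0.899). The arrays overlapped in both populations. Averaged over the populations, the difference was 0.61 (95% interval 0.03 to 1.20), with an unadjusted limma p of 0.0412 and an adjusted p of 0.690. In that averaged comparison 0 of 9 members were called, against 0.0% of all genes, and 1 member had an unadjusted p under 0.05, against 7.11% of all genes. Without wild-type HSC arrays 66 and 67, whose neutrophil markers were high, the Cdk6 difference in HSC was 1.44 (limma adjusted p = 0.452). The array that remained, 75, had the lowest Cdk6 level of all 12, and leaving it out instead gave 0.355. Without NFAT5-deficient HSC array 76 the difference was 0.38. In MPP it was 0.29 without wild-type array 75 and 0.95 without wild-type arrays 66 and 67, so its size rested on single arrays in both populations.

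Ccnd2 ran the other way. In MPP all 3 NFAT5-deficient arrays (7.84, 7.62 and 7.72) lay below all 3 wild-type arrays (7.93, 7.99 and 8.08), a difference of -0.28 (95% interval -0.76 to 0.21, limma adjusted p = 0.899). Such a separation of the MPP groups occurred for 12.6% of all genes (2464 of 19494), so it does not set Ccnd2 apart. In HSC the Ccnd2 difference was -0.29 (limma adjusted p = 0.897), with overlapping arrays. No member separated the HSC genotypes, against 10.2% of all genes (1980 of 19494). Without wild-type HSC arrays 66 and 67 the HSC difference of Ccnd2 was -0.62 (limma adjusted p = 0.676), whereas leaving out wild-type array 75 gave -0.125, and leaving out NFAT5-deficient array 64 gave -0.18. Without wild-type MPP arrays 66 and 67 the MPP difference was -0.35.

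**Figure D3:**
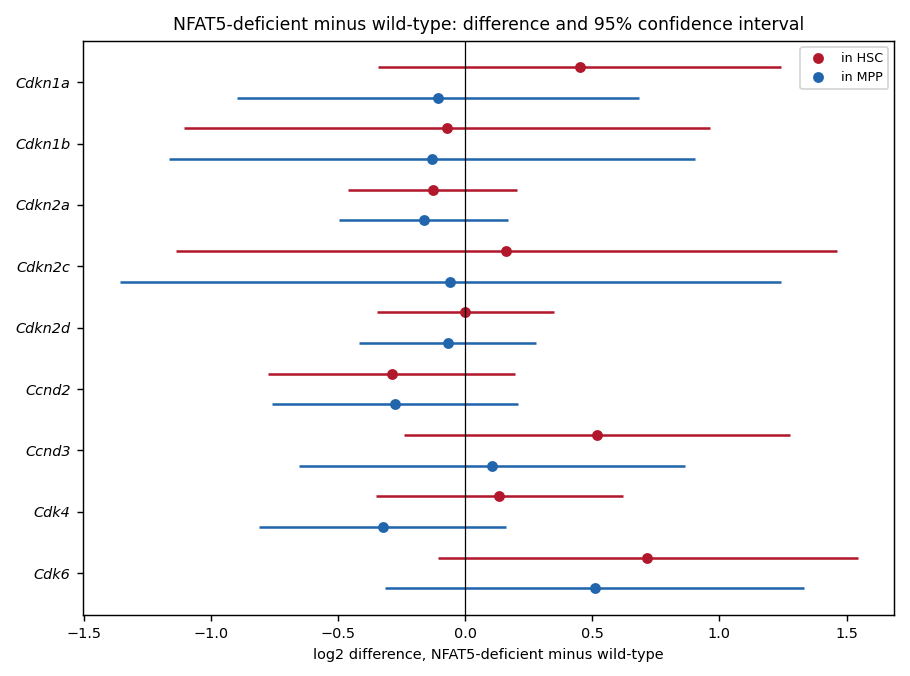
Log2 difference between NFAT5-deficient and wild-type cells for each member, in HSC and in MPP, with 95% confidence intervals from the limma fit; values right of 0 are higher in NFAT5-deficient cells. Every interval includes 0, and Cdk6 has the highest value in both populations (0.72 in HSC and 0.51 in MPP).

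The remaining members showed smaller or inconstant differences by genotype. Ccnd3 was 0.52 higher in NFAT5-deficient HSC (95% interval -0.24 to 1.28). That difference was 0.175 without NFAT5-deficient array 64, 0.23 without wild-type array 67, and 0.28 without wild-type arrays 66 and 67. Its difference in MPP was 0.11, and 0.41 without wild-type MPP arrays 66 and 67. Cdkn1a was 0.45 higher in NFAT5-deficient than in wild-type HSC (95% interval -0.34 to 1.24) and differed by -0.11 in MPP. Leaving out 1 array gave 0.28 to 0.73 in HSC, and without wild-type MPP arrays 66 and 67 the MPP difference was 0.57. Cdk4 differed by 0.14 in HSC and by -0.32 in MPP, with -0.16 in MPP without wild-type array 75 and -0.65 without wild-type arrays 66 and 67. For Cdkn1b the differences were -0.07 in HSC and -0.13 in MPP, and for Cdkn2c they were 0.16 and -0.06, with intervals that reach beyond 0.9 in size on both sides. Cdkn2d differed by 0.00 in HSC and by -0.07 in MPP, and its intervals exclude differences beyond 0.42 in size.

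The test of whether the genotype difference itself differed between HSC and MPP called 0 of 9 members, against 0.0% of all genes. The largest of these differences of differences were 0.56 for Cdkn1a, 0.46 for Cdk4 and 0.41 for Ccnd3, each with a limma adjusted p of 0.999, and the smallest was -0.01 for Ccnd2. The Cdkn1a value was -0.12 without wild-type MPP arrays 66 and 67, and the Ccnd3 value was 0.07 without NFAT5-deficient HSC array 64. The Cdkn1a interval ran from -0.56 to 1.68, so 3 arrays per group did not settle whether the genotypes differed alike in both populations. Within a single genotype, the HSC minus MPP comparison called 0 of 9 members in NFAT5-deficient cells, against 0.21% of all genes, and 0 of 9 in wild-type cells, against 0.164%.

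Other regulators of the G1 to S transition were measured beside the members. The list held 34 genes, all with a probe set: the retinoblastoma family, E2F and DP factors, cyclin E, cyclin A and CDK2 genes, other CDK inhibitors, CDK-activating kinase subunits, ubiquitin ligase parts and the DREAM complex. In HSC against MPP, averaged over genotypes, 0 of 34 were called, against 0.61% of all genes. In HSC 12 were higher and 22 lower, with a median difference of -0.15, against 63.4% higher and a median of 0.06 for all genes. Cks1b, the small CDK-binding protein that helps degrade p27, differed by -0.77 (limma adjusted p = 0.136), and Lin9, a DREAM and MuvB subunit, by -0.96 (limma adjusted p = 0.228). Cks1b read 10.60, 10.13 and 9.71 in NFAT5-deficient HSC and 10.62, 9.76 and 10.34 in wild-type HSC. In MPP it read 10.88, 10.93 and 10.64 in NFAT5-deficient and 10.79, 11.19 and 11.35 in wild-type cells. All 6 HSC arrays lay below all 6 MPP arrays, as for 1.33% of all genes in either direction. The gap was narrow, from 10.62 on the highest HSC array to 10.64 on the lowest MPP array.

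By genotype, averaged over the populations, 0 of 34 G1 genes were called, against 0.0% of all genes. In NFAT5-deficient cells 24 were higher and 10 lower, with a median of 0.17, against 37.7% higher and a median of -0.06 for all genes. Rbl2, which encodes the pocket protein p130 of resting cells, differed by 0.54 (limma adjusted p = 0.656). It read 10.60, 10.79 and 10.10 in NFAT5-deficient HSC, against 9.64, 10.39 and 9.92 in wild-type HSC, and 10.55, 10.07 and 10.20 in NFAT5-deficient MPP, against 9.68, 9.87 and 9.60 in wild-type MPP. The MPP genotypes did not overlap for this gene, as for 12.6% of all genes. Cdk2, the kinase that acts after CDK4 and CDK6, differed by 0.45 (limma adjusted p = 0.696). In HSC alone, Cdc25a, a phosphatase that activates CDKs, differed by 1.11, and Tfdp1, the DP partner of E2F factors, by 0.85, both with a limma adjusted p of 0.792. The Cdc25a value was 0.56 without wild-type HSC array 75 and 2.22 without wild-type HSC arrays 66 and 67, and the Tfdp1 value without those 2 arrays was 1.07.

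Of 20 genes listed as regulators of the members, 19 were measured. In HSC against MPP, averaged over genotypes, 1 of 19 was called, against 0.61% of all genes (119 of 19494). No regulator was called in any other comparison. Mycn, a MYC-family factor, rose in HSC by 1.37 averaged over genotypes (limma adjusted p = 0.0316). It read 8.75, 9.81 and 8.81 in NFAT5-deficient HSC and 8.77, 8.48 and 8.27 in wild-type HSC, against 7.32, 7.90 and 7.33 in NFAT5-deficient MPP and 7.07, 7.75 and 7.31 in wild-type MPP. All HSC arrays lay above all MPP arrays, as for 1.33% of all genes in either direction. The call depended on single arrays, while the size of the difference changed little. Leaving out 1 array in turn gave differences from 1.198 to 1.466 and lost the call in 7 of 12 cases. These were wild-type HSC 66, 67 or 75, NFAT5-deficient MPP 64 or 76, and wild-type MPP 66 or 75, with limma adjusted p from 0.0514 to 0.0982. The call was also lost without arrays 66 and 67 together, where the difference was 1.251 for wild-type HSC and 1.404 for wild-type MPP. Myc itself had group means of 8.54 in NFAT5-deficient HSC and 8.63 in wild-type HSC, against 9.61 in NFAT5-deficient MPP and 9.49 in wild-type MPP, so its HSC means lay below its MPP means, unlike those of Mycn. Myc was not called. In wild-type HSC minus MPP it differed by -0.86 (limma adjusted p = 0.546), where Mycn differed by 1.13 and was not called either (limma adjusted p = 0.324). Of the regulators, 13 were higher and 6 lower in HSC, with a median of 0.10, close to the 63.4% of all genes that were higher and their median of 0.06.

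Proliferation genes were lower in HSC on average. In the list of 20, 18 of 18 measured genes had a negative averaged HSC minus MPP difference, with a median of -0.44. Of all genes, 63.4% were higher in HSC. Within NFAT5-deficient cells 18 were lower in HSC, and within wild-type cells 17 were lower and 1 was higher. In the average 0 of 18 were called, against 0.61% of all genes. Cdk1, the mitotic kinase, differed by -0.74 (limma adjusted p = 0.110), and Mcm4, a helicase subunit loaded at replication origins, by -1.06 (limma adjusted p = 0.124). Cdk1 read 9.53, 9.37 and 9.84 in NFAT5-deficient HSC and 9.36, 9.44 and 8.76 in wild-type HSC, against 10.26, 10.18 and 10.35 in NFAT5-deficient MPP and 9.60, 10.24 and 10.08 in wild-type MPP. By genotype, averaged over the populations, 0 of 18 were called, against 0.0% of all genes. In NFAT5-deficient cells 13 were higher and 5 lower, with a median of 0.07, against 37.7% higher and a median of -0.06 for all genes. Rrm2, a ribonucleotide reductase subunit, had the smallest unadjusted p there, with a difference of 1.05 (limma adjusted p = 0.651), and 0.645 without wild-type MPP arrays 66 and 67.

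**Figure D4:**
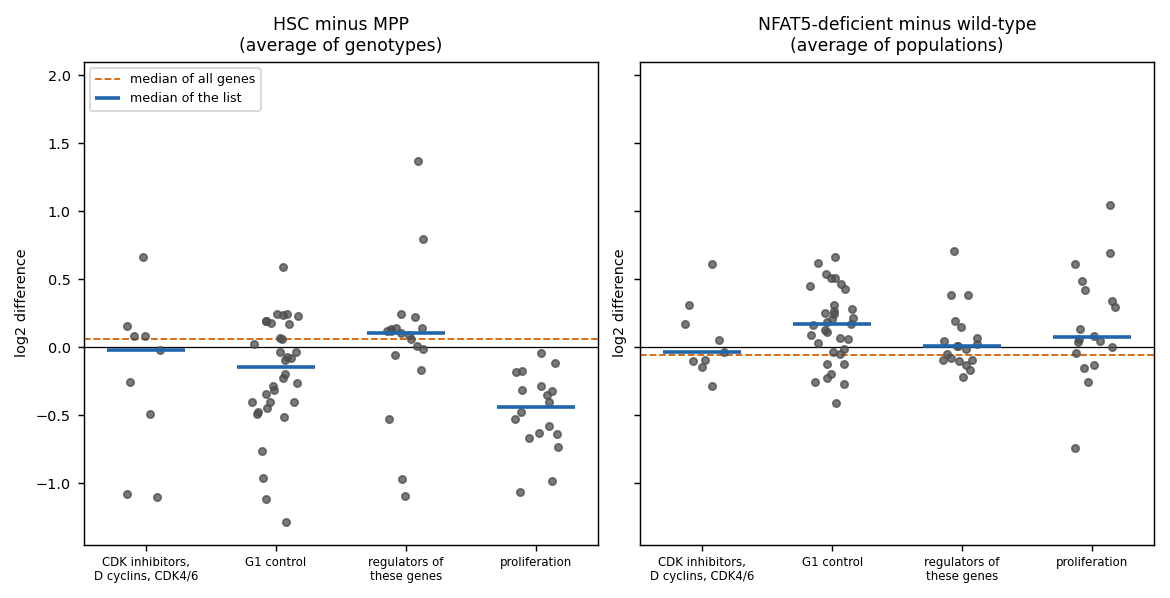
Log2 differences of the 9 measured members and of the genes of the 3 lists, averaged over genotypes for HSC minus MPP (left) and over populations for NFAT5-deficient minus wild-type (right). Points are genes, blue bars the list medians and the dashed line the median of all genes; every proliferation gene lies below 0 in the left panel, with a median of -0.44.

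Mean levels of some marker lists of other cells also moved with the population, and their part in these differences was not tested. The mean of 3 mast cell and basophil genes ran from 5.91 to 6.84 on HSC arrays and from 7.07 to 8.14 on MPP arrays. Within that list Prss34 ran the other way (6.94 in NFAT5-deficient and 6.99 in wild-type HSC, 6.51 and 6.74 in MPP). The mean of 4 megakaryocyte genes ran from 8.34 to 8.89 on HSC arrays and from 7.37 to 7.93 on MPP arrays. Among these, Itga2b differed little in wild-type cells (8.83 in HSC and 8.87 in MPP). The mean of the 9 mature neutrophil genes ran from 5.42 to 7.38 on HSC arrays and from 5.96 to 7.02 on MPP arrays. In sorted populations, a smaller share of cycling cells and less RNA per cell cannot be told apart.

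Over the 12 arrays, the genes whose pattern was most like that of a member, among 12463 genes with a mean of at least 6, were found by Pearson correlation as a description. The arrays share the 4 groups, so a correlation includes the difference between HSC and MPP. For Cdk6 these were AI504432 (r = 0.938), Slc28a2 (0.914) and Btbd1 (0.891). For Cdkn1a they were Thumpd2 (0.923), Ly6c2 (0.882) and Ly6c1 (0.876). For Ccnd2 they were Wdr38 (0.916), F2r (0.904) and Wnt7a (0.901), and for Cdkn2c they were Lcor (0.904), Kdelr2 (0.878) and Phf20 (0.865). Among the members themselves, Ccnd2 correlated at -0.887 with Cdk6 and at -0.751 with Cdkn1a, and Cdkn1a at 0.598 with Cdk6.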

How the data were processed

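Transcript levels were measured on 12 single-colour arrays from 300 pg of RNA each, amplified and labelled with biotin, per the labels' protocols. The deposited values are log2 intensities, a single table with a row per probe set and a column per array. RMA and limma are named, without versions, in the submitters' processing notes, and the log2 scale was read from the values (2.51 to 13.28). The build behind the probe annotation is not stated. Gene coordinates and promoters are RefSeq's for GRCm38.p6. Scan dates and array detection calls were not analysed here, and no batch was tested.

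Of 22142 probe sets, 19527 had 1 gene symbol, and the 2615 without a name were left out. The brightest probe set by mean stood for each of 33 genes with several. limma 3.58.1 (R 4.3.3) fitted 4 group means to the 12 arrays, with an intensity trend in eBayes and without further normalization or filter. P-values were adjusted by Benjamini-Hochberg over 19494 genes, with calls made under 0.05. The fit was tested on simulated data, and figures were drawn with matplotlib 3.10.9. The number of arrays limits the precision.

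The members, the lists and the tests were chosen with earlier results of these data known. Named genes were the members, Nfat5, up to 4 called genes of each list or else the 2 with the smallest p, and the 3 genes most like each of the 4 members with the widest range of group means. Settings varied were the variance prior, the samples in the fit, a filter on dim genes, the normalization, array weights, the choice of probe set, the array number as a block, the threshold and the arrays left out. Fits without wild-type HSC arrays 66 and 67, and without wild-type MPP arrays 66 and 67, were chosen after seeing the data.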

Additional observations from a re-analysis of the deposited data

How the results depend on the processing

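Of 63 member differences (9 members in 7 comparisons), 33 kept their sign in every setting and 30 changed it in some setting, and none of the 30 was called. The number of members called stayed at 0 in all comparisons and settings run, with 1 exception: eBayes without the trend called 1 member, Ccnd2, in HSC against MPP averaged over genotypes. Of 38 differences of other named genes, 0 changed sign. Genes called moved as follows. In HSC by genotype, the count of 0 became 30 without wild-type HSC arrays 66 and 67, and 0 to 3 with 1 array left out. In MPP by genotype, the count of 1 was 0 when only the compared groups were fitted, with dim genes left out or without those 2 HSC arrays, 3 with centring, 2 with quantile normalization, 6 with array weights, 7 at an adjusted p under 0.1, 21 without wild-type MPP arrays 66 and 67, and 0 to 4 with 1 array left out. In the interaction, the count of 0 became 1 with dim genes left out or at an adjusted p under 0.1, 9 without the 2 HSC arrays or without the 2 MPP arrays, and 0 to 1 with 1 array left out. In NFAT5-deficient HSC against MPP, the count of 41 was 23 with robust eBayes or quantile normalization, 12 with only the compared groups, 62 at an adjusted p under 0.1, 14 without the 2 MPP arrays, and 5 to 32 with 1 array left out. In wild-type HSC against MPP, the count of 32 was 9 with only the compared groups, 60 without the 2 HSC arrays, 72 at an adjusted p under 0.1, and 11 to 30 with 1 array left out. For the averages, 0 by genotype became 13 without the 2 HSC arrays or without the 2 MPP arrays and 0 to 2 with 1 array left out, and 119 by population became 218 at an adjusted p under 0.1, 79 without the 2 MPP arrays and 71 to 112 with 1 array left out.

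Same-numbered HSC and MPP arrays deviated from their group means with correlations from -0.014 to 0.064. Among MPP arrays of the genotype, HSC arrays 66 and 67 matched best with their own number, and arrays 64, 70, 76 and 75 with another. Numbers 66 and 67 also had high neutrophil means in both populations. Whether a number marks a shared source is not in the labels and was not settled, and the main fit did not pair the samples. With the array number as a replicate block, 3 genes were called in NFAT5-deficient HSC against MPP, 5 in wild-type cells and 52 in the average, with 0 members among them, and the limma adjusted p of Mycn was 0.0784.

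Most sign changes came with 1 array left out, and the lowest and highest log2 differences then were as follows. In HSC by genotype, they were -0.35 and 0.31 for Cdkn1b, -0.24 and 0.036 for Cdkn2a, -0.40 and 0.72 for Cdkn2c, and -0.085 and 0.05 for Cdkn2d. In MPP by genotype, they were -0.45 and 0.095 for Cdkn1a, -0.36 and 0.28 for Cdkn1b, -0.27 and 0.34 for Cdkn2c, -0.19 and 0.053 for Cdkn2d, and -0.066 and 0.25 for Ccnd3. In the interaction, they were -0.35 and 0.44 for Cdkn1b, -0.073 and 0.20 for Cdkn2a, -0.34 and 0.78 for Cdkn2c, -0.052 and 0.19 for Cdkn2d, -0.13 and 0.15 for Ccnd2, and -0.15 and 0.50 for Cdk6. In NFAT5-deficient HSC against MPP, they were -0.30 and 0.39 for Cdkn1b, -0.085 and 0.16 for Cdkn2a, -0.79 and 0.038 for Cdkn2c, -0.051 and 0.505 for Ccnd3, and -0.13 and 0.07 for Cdk4. In wild-type HSC against MPP, they were -0.33 and 0.32 for Cdkn1b, -0.13 and 0.071 for Cdkn2a, and -0.29 and 0.17 for Ccnd3. In the genotype average, they were -0.24 and 0.10 for Cdkn1b, -0.23 and 0.33 for Cdkn2c, and -0.095 and 0.027 for Cdkn2d. In the population average, they were -0.12 and 0.22 for Cdkn1b, -0.067 and 0.062 for Cdkn2a, and -0.085 and 0.23 for Ccnd3. Without wild-type HSC arrays 66 and 67, signs changed in HSC by genotype for Cdkn1b (0.22), Cdkn2a (0.088) and Cdkn2d (-0.074), in the interaction for Cdkn2d (-0.006), in wild-type HSC against MPP for Cdkn1b (-0.24) and Ccnd3 (0.12), and for Cdkn1b in the genotype average (0.047) and the population average (-0.066). Without wild-type MPP arrays 66 and 67, signs changed in MPP by genotype for Cdkn1a (0.571) and Cdkn2d (0.091), in the interaction for Cdkn1a (-0.121), Cdkn1b (-0.036), Cdkn2d (-0.09), Ccnd2 (0.063) and Cdk6 (-0.237), in wild-type HSC against MPP for Ccnd3 (0.188), and in the genotype average for Cdkn2c (-0.079) and Cdkn2d (0.046). Array weights changed the sign for Cdkn2d in HSC (-0.008) and Cdkn1a in MPP (0.031) by genotype, Cdkn2a in NFAT5-deficient HSC against MPP (0.019) and Cdkn2c in the genotype average (-0.049). Quantile normalization did so for Cdk4 in NFAT5-deficient HSC against MPP (0.033), and for Cdkn2c (-0.013) and Cdkn2d (0.002) in the genotype average. Apart from the left-out arrays, the cause of these changes was not tested.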
